A study of Mus musculus with 24 samples.

Results

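The effect of an antibody against PD-1 was measured across 24 subcutaneous CT26 tumours, of which 12 came from mice given anti-PD-1 and 12 from mice given an isotype control. The members were chosen by the antibody named in the sample titles and are all 24 tumours of the study, with the treatment of the cells in culture as an additive term. CT26 is a colon carcinoma line of BALB/c mice, and the hosts were BALB/c mice with an intact immune system. Within each antibody, 6 tumours grew from cells kept for 40 weeks in the PMS2 inhibitor NP1867 at 0.5 uM and 6 from cells kept for as long in its solvent, DMSO. PMS2 is a protein of DNA mismatch repair. Anti-PD-1 (rat IgG2a, kappa, clone RMP1-14) and the isotype antibody (rat IgG2a, kappa, clone 2A3) were each given intraperitoneally at 5 mg/kg for 4 doses, starting after randomisation on day 7, at a mean tumour volume near 50 cubic millimetres. Tumours were collected on day 19, 24 hours after the last dose. The labels do not give the age or sex of the mice. All 4 groups, NP1867 anti-PD-1, NP1867 isotype, DMSO anti-PD-1 and DMSO isotype, share the same cell line and the long culture, so no group is freshly thawed CT26.

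PD-1 is an inhibitory receptor that T cells display after activation, and its ligands PD-L1 and PD-L2 are carried by tumour, stromal and myeloid cells. An antibody that occupies PD-1 removes this brake on T cell receptor signalling. Activated T cells release interferon-gamma, which raises antigen presentation genes, and acts through the transactivator CIITA to raise MHC class II in cells that respond to it. The panel covers these steps together with genes of myeloid cells, complement, stroma and the tumour cells themselves.

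Counts recovered from the deposited values summed to between 106186 and 687032 per anti-PD-1 tumour, with a median of 393659, and to between 62699 and 489839 per isotype tumour, with a median of 319431. The 4 tumours with fewer than 200000 counts were DMSO tumours, 2 of each antibody (anti-PD-1 tumours 11 and 37, isotype tumours 6 and 23), where tumours are called by the number in their title. The scaling factor did not separate the antibodies: the anti-PD-1 minus isotype difference in log2 factor was -0.05, with a two-sided exact permutation p of 0.882 within culture. The median log2 value of a tumour was higher under anti-PD-1, at 6.75 ± 0.3 against 6.42 ± 0.37 in isotype tumours (SD, n = 12 each, exact permutation p = 0.0202). DMSO isotype tumour 23 stood apart from its group more often than any other tumour, and NP1867 isotype tumour 47 came next. Both carried high values of many immune genes. Tumour 23 also had the fewest counts (62699) and the largest scaling factor (5.457), so that 3 counts stand at a log2 value of 4.03 there. Whether its high values come from its low counts and large factor was not tested. The labels say that the sampled tumours were chosen to represent the mean volume of their group, so the p values cover the spread among tumours chosen in this way.

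Anti-PD-1 tumours differed from isotype tumours in 184 of the 600 genes tested (30.7%), with 166 genes higher (27.7%) and 18 lower (3%) under anti-PD-1. The largest rises were in MHC class II genes (H2-Eb1, 3.88-fold), acute phase and complement genes (Lbp, 3.44-fold, Cfd, 3.2-fold, and C3, 2.55-fold) and the chemokine Cxcl12 (2.54-fold), and 27 genes at least doubled. Of the genes named here, Cfd lost its call when each tumour was centred on its own median. The falls were smaller: the largest was Ulbp1 at 0.672 of its isotype level, and the NKG2D ligand gene H60a also fell. Fold changes are differences of log2 values, anti-PD-1 minus isotype, and adjusted p values are from limma with Benjamini-Hochberg adjustment over the 600 genes. Among the higher genes the median log2 fold change was 0.71 (range 0.27 to 1.96), and among the lower genes -0.32 (range -0.57 to -0.24). All 166 rises and all 18 falls had the same sign in NP1867 and in DMSO tumours, as did 85.7% of all tested genes.

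The levels of the antibodies' tumours overlapped gene by gene: for 0 of 600 genes were all 12 anti-PD-1 tumours outside the range of all 12 isotype tumours. A less strict count set each anti-PD-1 tumour against the isotype mean of its own culture. By this count all 12 anti-PD-1 tumours lay above that mean for 77 of the 166 higher genes, against 13.5% of all tested genes, and all 12 lay below it for 10 of the 18 lower genes, against 2.5% of all tested genes. The same values made the calls, so these counts describe them and do not support them.

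Because 461 of 600 genes had a positive fold change and the median over all tested genes was 0.33, the split between rises and falls depends on how tumours are scaled. With each tumour centred on its own median, the median fold change was -0.01 and the 149 calls divided into 54 higher (9%) and 95 lower (15.8%). Quantile normalisation gave 62 higher and 96 lower. All 54 rises under centring were among the 166, and all 18 falls were called again. Of the 166 rises, 2 turned sign when centred (Map3k1 and Prkcd). Medians and counts from the centred values are therefore given below beside those of most gene lists. Centring lowered the fold change of every gene by the same amount, the 0.34 by which the tumour medians differed between the antibodies. A sign that turned when centred thus follows from a deposited fold change under that amount and is no separate check. The calls when centred depend also on the spread among tumours, which centring changed. Without the 4 tumours of low counts, 333 genes were called (55.5%), 304 higher (50.7%) and 29 lower (4.83%), including 181 of the 184.

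**Figure D1:**
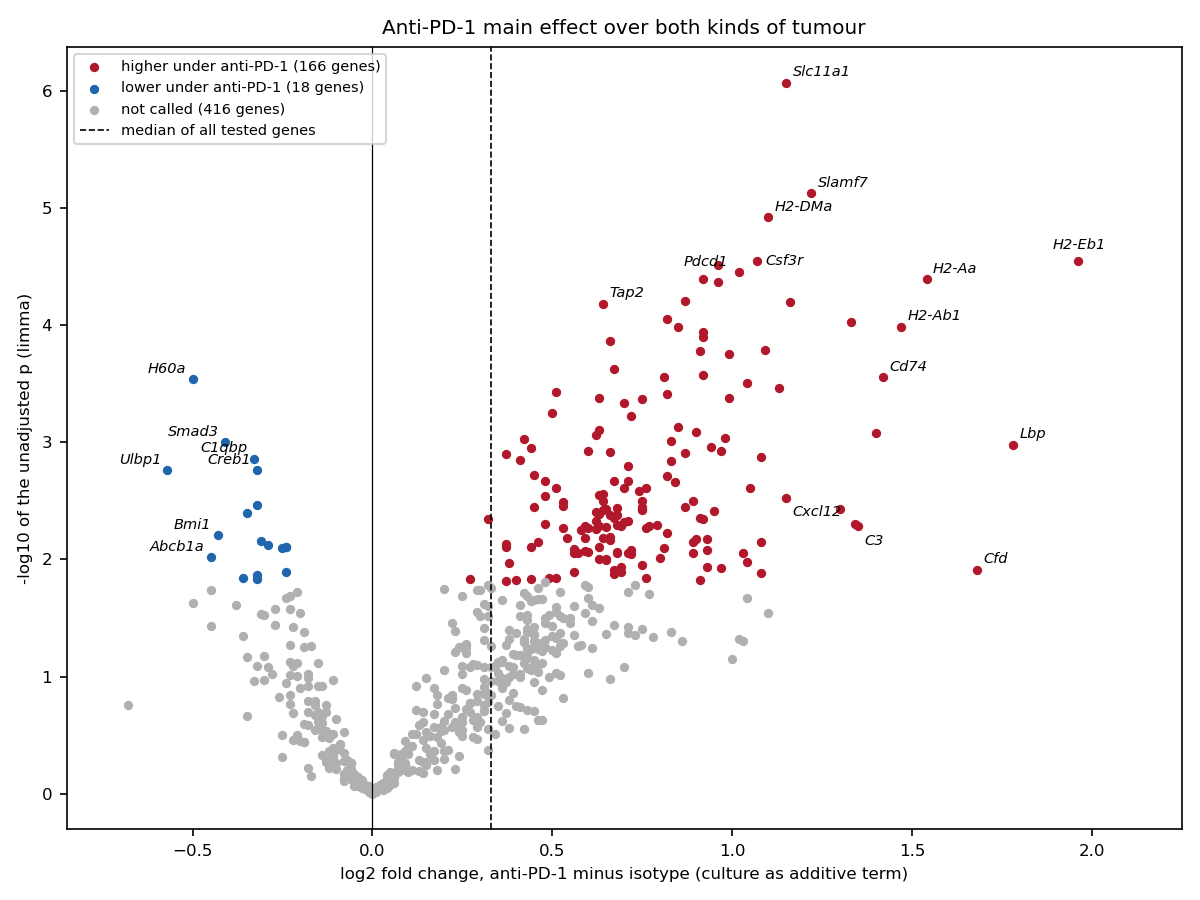
Log2 fold change under anti-PD-1 (anti-PD-1 minus isotype, culture as an additive term, horizontal axis) against -log10 of the unadjusted limma p (vertical axis) for 600 genes, each a point; red marks 166 genes called higher, blue 18 called lower, grey the rest, and the dashed line the median of 0.33. H2-Eb1 lies farthest to the right at 1.96 and Slc11a1 highest on the vertical axis; the blue points stay between -0.57 and -0.24, and centring each tumour on its median would move the dashed line to -0.01.

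MHC class II genes showed the largest change of any list. Class II molecules present peptides to CD4 T cells, and 8 of their 10 tested genes were higher under anti-PD-1 (80%), against 27.7% of all tested genes, with a median log2 fold change of 1.36 against 0.33. When tumours were centred the list's median was 1.03 and 7 genes remained higher. The list kept at least 8 calls without each tumour in turn.

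H2-Eb1, the beta chain of I-E, had log2 values from 9.52 to 12.88 in anti-PD-1 tumours (median 11.16), against 7.57 to 11.54 in isotype tumours (median 9.19). All 12 anti-PD-1 tumours were above the isotype mean of their culture, and the highest isotype value belonged to DMSO isotype tumour 23. The log2 fold change was 1.96 (SE 0.38, adjusted p = 0.00255) and 1.62 when centred. H2-Aa, the alpha chain of I-A, ran from 10.69 to 13.55 under anti-PD-1 (median 11.98) and from 8.82 to 11.95 under isotype (median 10.43), a log2 change of 1.54 (SE 0.31, adjusted p = 0.00255). Its partner H2-Ab1 rose by 1.47 (SE 0.32) and H2-Ea-ps, the I-E alpha gene under its older symbol, by 1.40 (SE 0.37). The invariant chain Cd74, which escorts class II chains to the endosome, was at 12.46 to 14.91 under anti-PD-1 (median 13.61) and 10.38 to 13.91 under isotype (median 12.05). Its log2 fold change was 1.42 (SE 0.34, adjusted p = 0.00619). These chains and their chaperone thus rose by 1.40 to 1.96 in log2 units, with upper isotype values reaching into the anti-PD-1 range.

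Ciita, the transactivator that switches class II genes on, had far lower counts than the genes it controls: its log2 values were 5.44 to 7.6 in anti-PD-1 tumours (median 6.33) and 3.85 to 6.36 in isotype tumours (median 4.8). It rose by 1.33 (SE 0.29, adjusted p = 0.00368), in 12 of 12 anti-PD-1 tumours. H2-DMa, a chain of the DM complex that loads peptides, rose by 1.10 (SE 0.2, adjusted p = 0.00239), and the endosomal protease Ctss by 0.81 (SE 0.19, adjusted p = 0.00619). Ctss kept its sign but lost its call when centred (0.47, adjusted p = 0.0709). The remaining tested genes were the atypical chain H2-Ob at 0.52 and H2-DMb2 at 0.38, neither past the threshold.

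**Figure D2:**
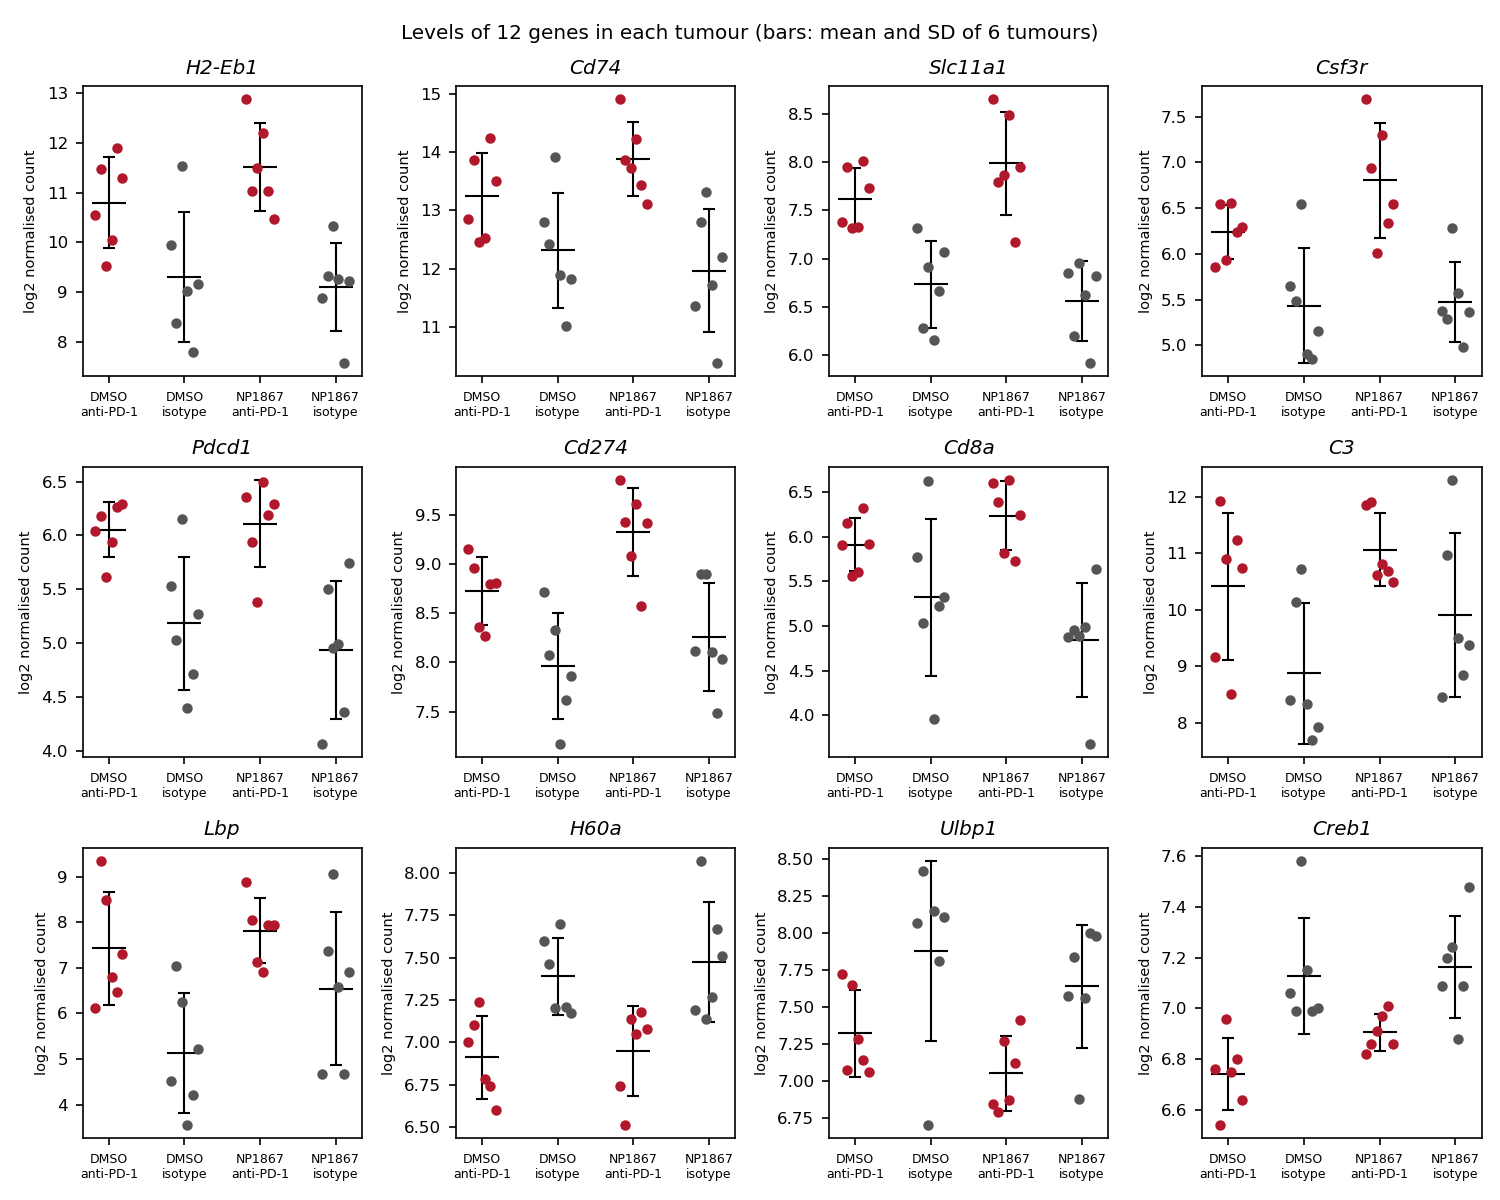
Log2 normalised counts (vertical axes) of 12 genes in every tumour, in DMSO anti-PD-1, DMSO isotype, NP1867 anti-PD-1 and NP1867 isotype tumours; points are tumours, horizontal marks with bars the mean and SD of 6 tumours. Red anti-PD-1 points sit above the grey isotype points of the same culture on average for 9 genes and below them for H60a, Ulbp1 and Creb1; DMSO isotype tumour 23 supplies the high H2-Eb1 value of 11.54 and the low Ulbp1 value of 6.7.

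Promoters of class II genes carry a conserved block that ends in an inverted CCAAT box, bound by NF-Y, upstream of the start, and the letters ATTGG mark that box on the coding strand. The 120 bases upstream of the RefSeq start (GRCm38.p6) are printed for the chains H2-Eb1 and H2-Aa, with ATTGG or its complement CCAAT in capitals, because both genes rose and the box is a known part of class II promoters.
H2-Eb1, chr17:34305747-34305866, plus strand: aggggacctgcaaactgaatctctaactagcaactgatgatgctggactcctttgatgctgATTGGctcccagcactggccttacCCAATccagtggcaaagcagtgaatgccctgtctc
H2-Aa, chr17:34287824-34287943, minus strand: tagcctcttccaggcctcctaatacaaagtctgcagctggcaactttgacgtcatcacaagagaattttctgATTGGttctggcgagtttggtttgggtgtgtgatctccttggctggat
H2-Eb1 holds ATTGG 59 bases and CCAAT 35 bases upstream of the start, and H2-Aa holds ATTGG 48 bases upstream. H2-Ob, which was not called, holds ATTGG 57 bases upstream. In windows from 250 bases before to 50 after the start, ATTGG on either strand was found in 7 of 8 matched class II genes (87.5%), against 41.1% of 27025 genes and 37.2% of the panel's tested genes. Among panel genes higher under anti-PD-1 the share was also 37.2%.

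MHC class I molecules present peptides to CD8 T cells, and 12 of 17 tested genes of class I, its peptide supply and its loading were higher (70.6%). Their changes were smaller than those of class II, with a median log2 fold change of 0.51, or 0.18 when centred, where 2 genes stayed called. H2-T23, the Qa-1 chain read by NKG2A receptors, led the list: its log2 values were 9.69 to 11.06 under anti-PD-1 (median 10.35) and 8.26 to 10.13 under isotype (median 9.44), a log2 change of 0.96 (SE 0.19, adjusted p = 0.00255). The immunoproteasome subunit Psmb9 ran from 9.92 to 10.72 under anti-PD-1 (median 10.28) and from 8.21 to 10.29 under isotype (median 9.65), and rose by 0.82 (SE 0.18, adjusted p = 0.00368). The peptide transporter chain Tap2 rose by 0.64 (SE 0.14, adjusted p = 0.00303), and the classical chain H2-K1 by 0.51 (SE 0.13, adjusted p = 0.00719). Their centred values were 0.31 and 0.18, neither past the threshold. All 12 anti-PD-1 tumours exceeded the isotype mean of their culture for each of these genes. The lipid-presenting Cd1d1 (0.71) and the constitutive proteasome subunit Psmb7 (-0.08) were not called.

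Genes of the interferon-gamma response rose broadly: 17 of 21 were higher (81%), with a median log2 fold change of 0.63, or 0.29 when centred with 5 called. The list shares Ciita, Psmb9 and Cd274 with other lists. Irf8, a factor of myeloid cells induced by interferon-gamma, ran from 7.44 to 9.22 under anti-PD-1 (median 7.98) and from 7.14 to 8.12 under isotype (median 7.47), rising by 0.66 (SE 0.15, adjusted p = 0.00412). The antibodies' ranges overlapped, with all 12 anti-PD-1 tumours above the isotype mean of their culture. The adhesion molecule Icam1 rose by 0.70 (SE 0.17), the GTPase Irgm2 by 0.67 (SE 0.21) and Irf1 by 0.48 (SE 0.14). Cxcl9, a chemokine for activated T cells, rose by 0.89 (SE 0.3, adjusted p = 0.0321), a call that held in 16 of 24 fits that each left out 1 tumour. Nos2 (0.61), Cxcl10 (0.43), Ido1 (0.43) and Cxcl11 (0.19) were not called. The list fell to 8 calls without NP1867 anti-PD-1 tumour 78, and the list's median stayed between 0.54 and 0.71 over the left-out fits.

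Interferon-gamma itself was not called. Ifng had log2 values of 4.13 to 5.67 in anti-PD-1 tumours (median 4.86) and 3.05 to 6.03 in isotype tumours (median 3.9), a log2 change of 0.73 (SE 0.29, adjusted p = 0.0529), with 11 of 12 anti-PD-1 tumours above the isotype mean of their culture. Of 15 tested genes of the Th1 axis, 5 were higher (33.3%), near the 27.7% of all tested genes. Among them were the Th1 factor Tbx21 (0.82, SE 0.27, adjusted p = 0.0296), the chemokine receptor Cxcr3 (0.75) and the interleukin 12 receptor chain Il12rb1 (0.65). The list's median was 0.50 and 0.17 when centred, where 0 were called, and left-out fits gave 2 calls (without DMSO isotype tumour 55) to 10 (without DMSO isotype tumour 23).

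T cell genes were higher in the anti-PD-1 tumours. Among CD3 chains, coreceptors and lineage genes 8 of 13 rose (61.5%), with a median log2 fold change of 0.70, or 0.36 when centred with 3 called. In a bulk tumour, more T cells and more RNA per T cell cannot be told apart. Cd3d, a chain of the T cell receptor complex, had log2 values of 6.31 to 7.6 under anti-PD-1 (median 6.94) and 4.77 to 7.31 under isotype (median 6.01), a log2 change of 0.99 (SE 0.23, adjusted p = 0.00465). Cd8a, the coreceptor of cytotoxic T cells, ran from 5.56 to 6.63 under anti-PD-1 (median 6.04) and from 3.68 to 6.62 under isotype (median 5.01), rising by 0.99 (SE 0.24, adjusted p = 0.00733). The anti-PD-1 tumours held a narrow, high range for Cd8a, while isotype tumours spread down to far lower values. Cd4, carried by helper T cells and some myeloid cells, rose by 0.81 (SE 0.28, adjusted p = 0.034) in 10 of 12 tumours, and lost its call when centred (0.47), and it was called in 14 of 24 left-out fits. Without NP1867 anti-PD-1 tumour 78 the list had 4 calls, the lowest number, and without DMSO isotype tumour 23 it had 12.

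T cell receptor signalling genes moved in both directions, with 7 of 17 higher (41.2%, against 27.7% of all tested genes) and 1 lower. Their median was 0.41 (0.08 when centred), and left-out fits gave 4 higher (without DMSO anti-PD-1 tumour 7) to 10 (without DMSO isotype tumour 23). The lipid phosphatase Inpp5d rose by 0.62 (SE 0.16, adjusted p = 0.0122). Among the NFAT factors, Nfatc4 rose by 1.05 (SE 0.31, adjusted p = 0.0207) and Nfatc3 fell by 0.32 in log2 units (SE 0.12, adjusted p = 0.0488), while Nfatc1 and Nfatc2 were at 0.06 and 0.41 without a call. The proximal kinase Lck (0.38) was not called. Nfatc3 was called in 6 of the 24 left-out fits.

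The transcript of the antibody's target was itself higher. Pdcd1 had log2 values of 5.38 to 6.5 in anti-PD-1 tumours (median 6.19) and 4.06 to 6.15 in isotype tumours (median 5.01), a log2 change of 1.02 (SE 0.2, adjusted p = 0.00255), with 12 of 12 anti-PD-1 tumours above the isotype mean of their culture. Its ligand gene Cd274 (PD-L1), induced by interferon-gamma, ran from 8.27 to 9.85 under anti-PD-1 (median 9.02) and from 7.17 to 8.9 under isotype (median 8.09), rising by 0.92 (SE 0.19, adjusted p = 0.00255). The second ligand, Pdcd1lg2 (PD-L2), rose by 0.89 (SE 0.27, adjusted p = 0.024). Receptor and ligands remained called when centred, at 0.69, 0.58 and 0.55. Of 13 tested checkpoint genes 6 were higher (46.2%), with a median of 0.66 (0.32 when centred), and 4 without NP1867 anti-PD-1 tumour 78: besides these 3, Lag3, a receptor for class II, rose by 0.75 (SE 0.24), Tnfrsf14, the ligand of BTLA, by 0.67 (SE 0.16), and Ctla4 by 0.67 (SE 0.25, adjusted p = 0.0465). Ctla4 was called in 10 of 24 left-out fits and lost its call when centred (0.33). Btla (0.66), Tigit (0.31) and the tumour-side ligands Cd276 (-0.03) and Pvr (-0.14) were not called.

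Among co-stimulatory genes 6 of 18 were higher (33.3%), near the 27.7% of all tested genes, with a median of 0.46 (0.12 when centred, with 2 higher). The count was 4 without DMSO isotype tumour 59, 13 without DMSO isotype tumour 23 and 1 with Ptprc as covariate. Icos, a CD28-family receptor of activated T cells, rose by 0.85 (SE 0.22, adjusted p = 0.0113), and its ligand Icosl by 0.60. Cd86, a B7 ligand of antigen-presenting cells, rose by 0.72 (SE 0.18, adjusted p = 0.00944), whereas its relative Cd80 was at -0.07. Regulatory T cell genes gave 3 of 8 higher (37.5%), with a median of 0.50 (0.16 when centred), and 0 without DMSO anti-PD-1 tumour 7, when centred, and with Ptprc as covariate. Foxp3, their defining factor, was not called: its log2 values were 2.04 to 5.35 under anti-PD-1 (median 4.83) and 3.48 to 4.89 under isotype (median 3.95), a log2 change of 0.58 (SE 0.29, adjusted p = 0.113). The low end of the anti-PD-1 range was NP1867 tumour 67 alone, where 2.04 is the log2 value of 3 counts.

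Among cytotoxic effector genes 2 of 9 were higher (22.2%), no more than the 27.7% of all tested genes, with a median of 0.39, or 0.05 when centred. Left-out fits gave 0 (without DMSO isotype tumour 55) to 6 (without DMSO isotype tumour 23). Gzmb, a granzyme that triggers apoptosis in target cells, had log2 values of 6.6 to 9.6 under anti-PD-1 (median 7.77) and 6.41 to 8.51 under isotype (median 7.42), a log2 change of 0.39 (SE 0.25, adjusted p = 0.217). Prf1, the pore protein perforin, was at 6.75 to 10.41 under anti-PD-1 (median 7.8) and 6.84 to 8.91 under isotype (median 7.63), a log2 change of 0.32 (SE 0.29, adjusted p = 0.373). For both genes the ranges overlapped, the highest anti-PD-1 values lay above every isotype tumour, and 7 of 12 anti-PD-1 tumours lay above the isotype mean of their culture. Gzma (0.17) and Fasl (0.45) were not called either, and a difference in response between T cell and cytotoxic genes was not tested.

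Cytokine receptors of lymphocytes were higher. Il2rg, the common gamma chain shared by the receptors of several T cell growth factors, had log2 values of 6.75 to 8.89 under anti-PD-1 (median 7.69) and 6.18 to 7.6 under isotype (median 6.65), a log2 change of 0.96 (SE 0.19, adjusted p = 0.00255), and 0.62 when centred. With it rose Il7r by 0.95 (SE 0.3) and Il21r by 0.90 (SE 0.24), and 6 of 10 genes of the family were higher (60%), with a median of 0.58 and 0.24 when centred. The kinase Jak3 that binds the common chain was at 0.14, without a call. Without NP1867 anti-PD-1 tumour 78 the list had 2 calls.

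T cell-attracting chemokines and their receptors gave 7 of 15 higher (46.7%), with a median of 0.60, or 0.26 when centred with 3 called. Cxcr6, a receptor of tissue-resident and effector T cells, rose by 1.08 (SE 0.3, adjusted p = 0.0144). Ccl5, a chemokine of T cells and monocytes, had log2 values of 7.4 to 10.81 under anti-PD-1 (median 8.93) and 6.99 to 9.59 under isotype (median 7.97), rising by 0.97 (SE 0.27, adjusted p = 0.0137), and its relatives Ccl4 and Ccl3 rose by 0.92 (SE 0.2, adjusted p = 0.00381) and 0.71 (SE 0.2). The list of monocyte and neutrophil-attracting chemokines gave 4 of 15 higher (26.7%), no more than the 27.7% of all tested genes, with a median of 0.53, or 0.19 when centred. It had 1 call without DMSO isotype tumour 55, 8 without DMSO isotype tumour 23 and 0 with Ptprc as covariate. Among lymphoid chemokines and lymphotoxins 4 of 13 rose (30.8%), with a median of 0.46, or 0.12 when centred, and left-out fits gave 2 calls (without DMSO isotype tumour 55) to 6 (without DMSO isotype tumour 23). Cxcl12, a stromal chemokine, ran from 8.03 to 11.98 under anti-PD-1 (median 9.62) and from 6.49 to 11.35 under isotype (median 8.27), a log2 change of 1.34 (SE 0.44, adjusted p = 0.0274), called in 20 of 24 left-out fits. Ltb, the membrane lymphotoxin, rose by 0.92 (SE 0.22, adjusted p = 0.00619) and the lymph node homing receptor Ccr7 by 0.83 (SE 0.23). Cxcl13, which draws B cells, was at 1.0 with too wide a spread for a call (SE 0.53, adjusted p = 0.135). The eosinophil attractant Ccl24 rose by 1.08 (SE 0.37, adjusted p = 0.0321), the single call among 12 type 2 genes, whose median was 0.40, or 0.06 when centred. Without DMSO isotype tumour 55 the type 2 list had 0 calls, and without DMSO isotype tumour 23 it had 7.

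The gene with the lowest p of the panel was myeloid. Slc11a1, a metal transporter of phagosomes in macrophages and neutrophils, had log2 values of 7.17 to 8.65 in anti-PD-1 tumours (median 7.83) and 5.92 to 7.32 in isotype tumours (median 6.75). Its log2 fold change was 1.15 (SE 0.18, adjusted p = 0.000511), and 0.82 when centred. Among NP1867 tumours the 6 anti-PD-1 values began at 7.17, above the highest isotype value of 6.96. Among DMSO tumours they began at 7.32, which is also the highest isotype value to the digits given. Slamf7, a SLAM receptor of activated lymphocytes and macrophages, ran from 6.05 to 8.03 under anti-PD-1 (median 6.83) and from 4.63 to 6.38 under isotype (median 5.79), rising by 1.22 (SE 0.22, adjusted p = 0.00223). Csf3r, the receptor of the granulocyte growth factor, was at 5.86 to 7.69 under anti-PD-1 (median 6.44) and 4.85 to 6.54 under isotype (median 5.37), rising by 1.07 (SE 0.21, adjusted p = 0.00255). These 3 genes kept their calls in every left-out fit and in all 14 settings, and each had 12 of 12 anti-PD-1 tumours above the isotype mean of its culture.

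Of 28 macrophage and monocyte genes 8 were higher (28.6%), close to the 27.7% of all tested genes, with a median of 0.40 (0.06 when centred), and 3 were higher without NP1867 anti-PD-1 tumour 78. The lysosomal marker Cd68 rose by 0.58 (SE 0.19, adjusted p = 0.0282), the oxidase subunit Cybb by 0.63 (SE 0.2) and the lipid receptor Trem2 by 0.53 (SE 0.16). Csf1r (0.45), the integrin Itgam (0.25, adjusted p = 0.31), Arg1 (0.36) and the mannose receptor Mrc1 (-0.45, adjusted p = 0.0905) were not called, and when centred Itgam was at -0.09 and Mrc1 at -0.79, the second past the threshold (adjusted p = 0.00408). Of 11 neutrophil genes (median 0.46, or 0.13 when centred) Csf3r alone was called, and 4 were without DMSO isotype tumour 23, with S100a8 at 0.83 and Cxcr2 at 0.71 past no threshold. Among 8 tested genes of colony-stimulating factors and their receptors 3 were higher (37.5%) and 1 lower, with a median of 0.37 (0.03 when centred). Csf2rb and Il3ra rose by 0.92 (SE 0.2) and 0.87 (SE 0.24). Il34, which encodes a ligand of the CSF1 receptor, fell by 0.29 in log2 units (SE 0.1, adjusted p = 0.0337), and the gene of that receptor, Csf1r, was not called. Among Fc gamma receptor genes 3 of 5 were higher, led by Fcgr4 at 0.72, with a median of 0.51 (0.17 when centred), and without DMSO isotype tumour 55 0 were called.

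Dendritic cell genes gave 5 of 12 higher with a median of 0.68 (0.34 when centred), including Cd86, Ccr7, Irf8 and the integrin chain Itgae (0.70), while Xcr1, which marks cross-presenting dendritic cells, was at 0.60 without a call (adjusted p = 0.0543). Left-out fits gave 4 calls (without DMSO isotype tumour 55) to 10 (without DMSO isotype tumour 23). Integrins gave 4 of 12 higher (33.3%, median 0.26) and leukocyte adhesion molecules 4 of 16 (25%, median 0.25), close to the 27.7% of all tested genes, and both medians turned negative when centred (-0.07 and -0.09). Without DMSO isotype tumour 23 the adhesion list had 9 calls. Among the members called, Itgb2, the common beta chain of leukocyte integrins, rose by 0.85 (SE 0.19, adjusted p = 0.00368), Selplg, the ligand of P-selectin, by 0.82 (SE 0.2, adjusted p = 0.00724), and Cd97, an adhesion receptor, by 1.09 (SE 0.25, adjusted p = 0.00452). Il1rn, the interleukin 1 receptor antagonist, rose by 0.91 (SE 0.21, adjusted p = 0.00452) and was the single call among 16 genes of the interleukin 1 family, with Il1b at 0.39. That family's median of 0.17 turned to -0.17 when centred, with 1 higher and 4 lower, and it had 5 calls without DMSO isotype tumour 23.

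Mast cell proteases were higher. Tpsab1, a tryptase stored in mast cell granules, had log2 values of 6.99 to 8.83 under anti-PD-1 (median 7.76) and 5.52 to 7.49 under isotype (median 6.76), a log2 change of 1.16 (SE 0.24, adjusted p = 0.00303). Cma1, a chymase of the same granules, was at 7.56 to 9.04 under anti-PD-1 (median 8.42) and 6.33 to 8.44 under isotype (median 7.4), rising by 1.04 (SE 0.25, adjusted p = 0.00641). In 12 of 12 anti-PD-1 tumours both exceeded the isotype mean of their culture, and both stayed called when centred, at 0.82 and 0.70. The IgE receptor chain Fcer1a rose by 0.68 (SE 0.22), and the other chain Ms4a2 (0.45) and the growth factor receptor Kit (0.29) were not called.

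Complement genes rose across the pathways: 12 of 21 were higher (57.1%) and 1 was lower, with a median of 0.66, or 0.32 when centred with 4 higher and 2 lower. C3, the central component, had log2 values of 8.51 to 11.93 under anti-PD-1 (median 10.77) and 7.69 to 12.29 under isotype (median 9.12), a log2 change of 1.35 (SE 0.44, adjusted p = 0.0274). Serping1, the inhibitor of C1, ran from 7.31 to 9.76 under anti-PD-1 (median 8.19) and from 5.46 to 9.42 under isotype (median 6.56), rising by 1.3 (SE 0.41, adjusted p = 0.0249). For C3 the highest isotype tumour lay above every anti-PD-1 tumour, and for Serping1 it neared the top of the anti-PD-1 range. Cfd, the protease of the alternative pathway and a product of fat cells, rose by 1.68 (SE 0.62, adjusted p = 0.0438), with a spread of 3.69 to 9.15 under anti-PD-1 (median 5.5) and 3.24 to 7.1 under isotype (median 4.62). Its call held in 9 of 24 left-out fits, and that of C4b (1.08, SE 0.4, adjusted p = 0.0452) in 8. Cfd also lost its call when centred (1.34, adjusted p = 0.0906), under quantile normalisation (1.44, adjusted p = 0.0755) and with Ptprc as covariate (1.57, adjusted p = 0.147). C1ra, a protease of the classical pathway, rose by 0.98 (SE 0.26, adjusted p = 0.0125) and was called in each left-out fit. Without NP1867 anti-PD-1 tumour 78 the list had 3 higher genes in place of 12.

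Lbp, the acute phase protein that hands lipopolysaccharide to CD14, had the second largest fold change. Its log2 values were 6.12 to 9.34 under anti-PD-1 (median 7.63) and 3.55 to 9.06 under isotype (median 5.74), a log2 change of 1.78 (SE 0.48, adjusted p = 0.0131), and 12 of 12 anti-PD-1 tumours lay above the isotype mean of their culture. With Ptprc as covariate Lbp was at 1.03 and lost its call (adjusted p = 0.0839). Its partners Cd14 (0.01) and Tlr4 (0.14) were not called, and of 24 Toll-like receptor and MyD88 genes 3 were higher and 1, the adaptor Tab1, lower. That list's median of 0.19 turned to -0.14 when centred, with 2 higher and 3 lower, and it had 10 higher genes without DMSO isotype tumour 23. Of 8 genes of cholesterol efflux and lipid scavenging 3 were higher (37.5%, against 27.7% of all tested genes) and 1 lower, with a median of 0.61, or 0.27 when centred. The list had 2 higher genes without NP1867 anti-PD-1 tumour 78, 5 without DMSO isotype tumour 6, and 1 with Ptprc as covariate. Apoe, the lipid carrier of macrophages, rose by 1.15 (SE 0.35, adjusted p = 0.0232), and the exporters Abcg1 by 1.13 (SE 0.27, adjusted p = 0.00695) and Abca1 by 0.69. Abcg1 was at 8.19 to 10.92 under anti-PD-1 (median 9.38) and 7.46 to 9.79 under isotype (median 8.3), and it was called in all 14 settings.

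Stromal and vessel markers were mixed, and their levels are given here beside the complement and stromal chemokine genes. The summed level of 4 fibroblast markers (Col1a1, Col3a1, Fap and Pdgfrb) ran from 3024 to 67158 normalised counts in anti-PD-1 tumours (median 12637) and from 1571 to 48484 in isotype tumours (median 4363). Of these markers Fap alone was called (0.93, SE 0.34, adjusted p = 0.0426, in 10 of 24 left-out fits), and Col1a1 was at 1.02 (SE 0.49, adjusted p = 0.105). For 4 endothelial markers the sums were 292 to 1257 under anti-PD-1 (median 434) and 296 to 1021 under isotype (median 481). Vwf rose by 0.93 (SE 0.32, adjusted p = 0.0345), while Pecam1 was at 0.04 (adjusted p = 0.898) and turned negative when centred. Of 3 epithelial markers 2 were tested and 0 called. The sums of all 3 were 41 to 185 under anti-PD-1 (median 81) and 31 to 191 under isotype (median 52). Whether stromal content takes part in the changes of complement and chemokine genes was not tested.

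Genes of natural killer cells gave 4 of 13 higher (30.8%), near the 27.7% of all tested genes, with a median of 0.47 and 0.13 when centred. Klrk1, which encodes NKG2D, rose by 0.75 (SE 0.23, adjusted p = 0.0249), but Ncr1, an activating receptor of these cells, was at 0.13 (SE 0.2, adjusted p = 0.6), and Klrk1 is also carried by CD8 T cells. Without NP1867 anti-PD-1 tumour 78 the list had 0 higher genes, with Klrk1 at an adjusted p of 0.0509. B cell and plasma cell genes (median 0.49, or 0.16 when centred) gave 9 calls without DMSO isotype tumour 23, 0 without DMSO isotype tumour 55 and, with all tumours, 1 of 14, Cd38 (0.66, SE 0.22), which other activated leukocytes carry too.

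Type I interferon-stimulated genes were mostly not called: 5 of 25 were higher (20%) against 27.7% of all tested genes, with a median of 0.39, or 0.05 when centred with 0 called, and left-out fits gave 3 (without DMSO isotype tumour 55) to 8 (without DMSO isotype tumour 23). The members called included the antiviral factor Irf7 (0.68, SE 0.21, adjusted p = 0.0249), the nucleic acid sensor Zbp1 (0.77, SE 0.25) and the tethering protein Bst2 (0.51, SE 0.15). Isg15 (0.42), Ifit1 (0.35) and Mx2 (0.41) were not. Of 15 genes of nucleic acid sensing (median 0.26, or -0.08 when centred) 2 rose, against 7 without DMSO isotype tumour 23 and 1 without NP1867 isotype tumour 57, the endosomal DNA receptor Tlr9 (0.64, SE 0.2) and the kinase Ikbke (0.48). Among 22 genes of NF-kB and TNF 4 were higher, with a median of 0.09 that turned to -0.25 when centred with 8 lower, and 1 was higher without NP1867 anti-PD-1 tumour 78 and 9 without DMSO isotype tumour 23. These 4 include the feedback inhibitors Tnfaip3 (0.63, SE 0.15, adjusted p = 0.00733) and Nfkbia (0.44), whereas the subunits Rela (-0.01) and Nfkb1 (0.15) were not called. The interleukin 17 and 22 list had 0 calls among 7 tested genes.

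**Figure D3:**
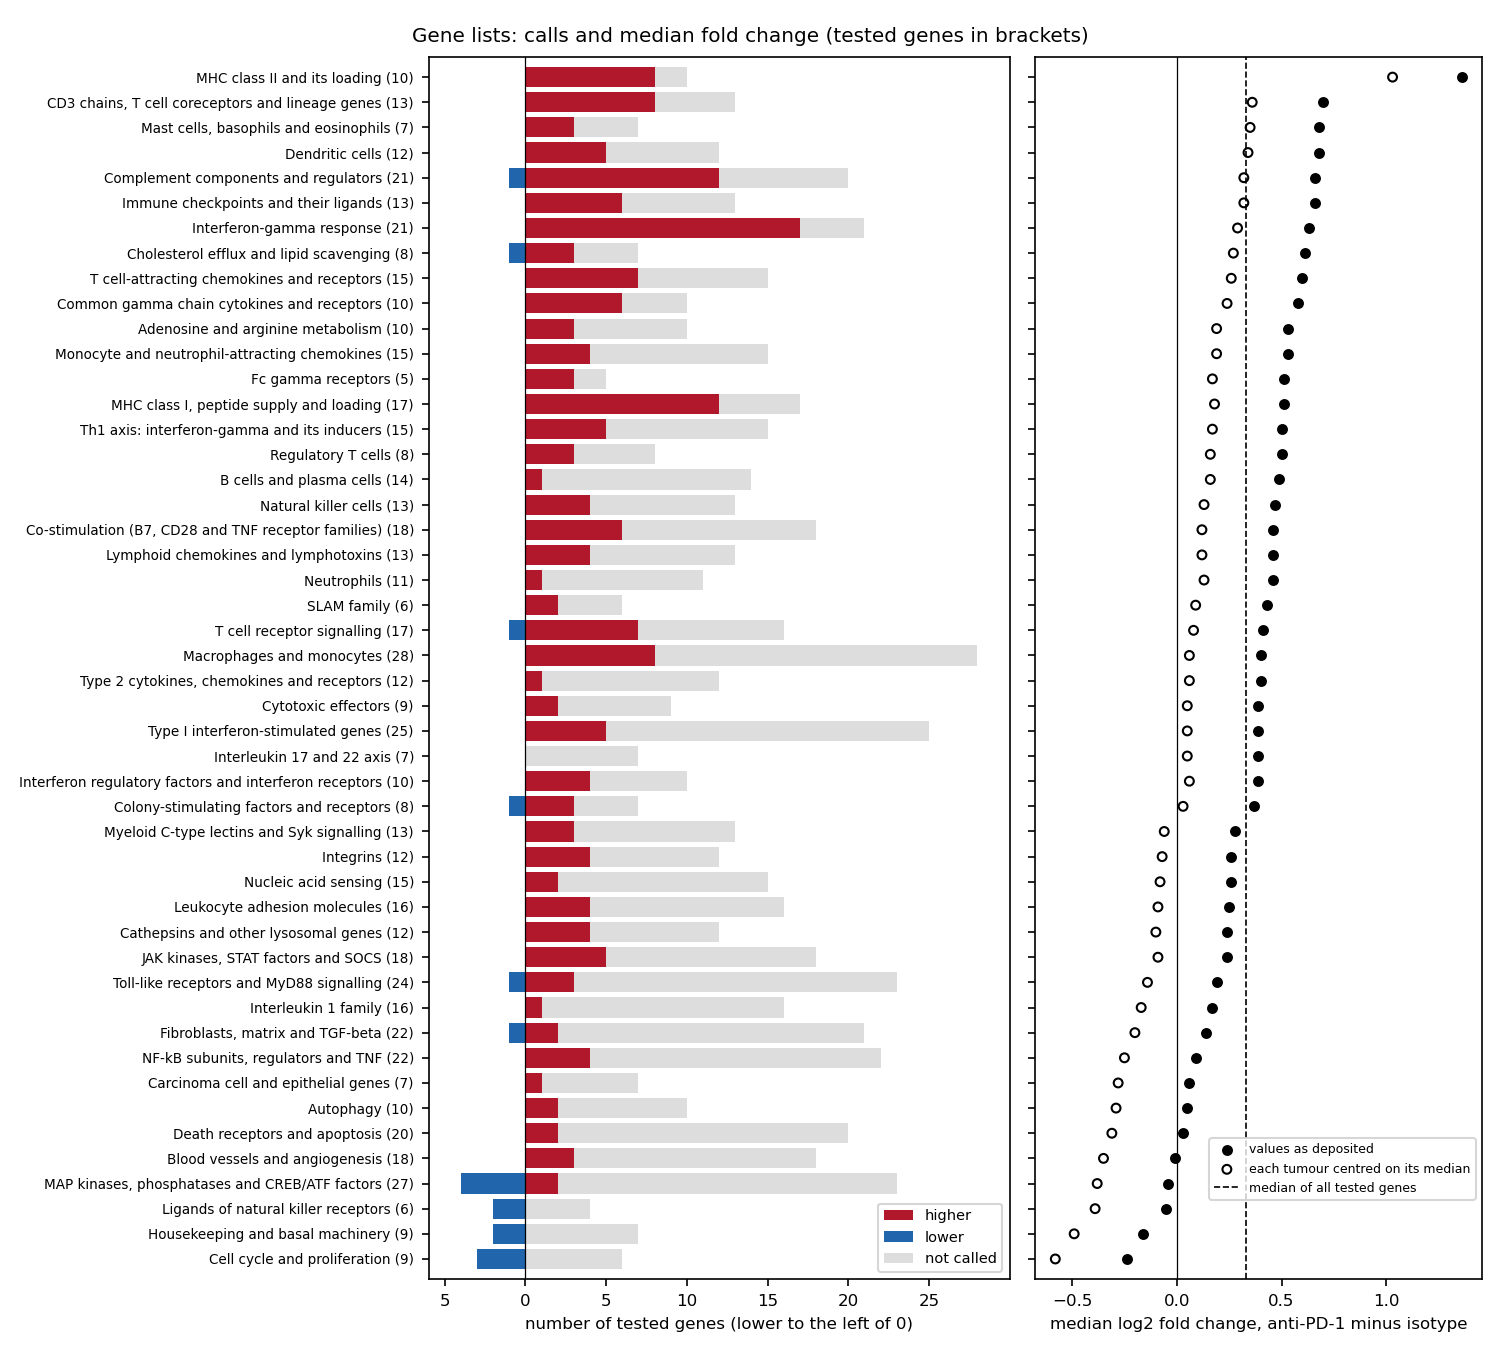
Left: for each of 48 gene lists, the number of tested genes called higher (red), called lower (blue, to the left of 0) and not called (grey). Right: median log2 fold change of the list, anti-PD-1 minus isotype, from the values as deposited (filled) and with each tumour centred on its median (open), with a dashed line at 0.33 for all tested genes. MHC class II stands at 1.36 and 1.03 at the top, cell cycle genes at -0.24 and -0.58 at the bottom; lists in between, from myeloid C-type lectins downwards, cross 0 or fall below it when centred.

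The 18 genes lower under anti-PD-1 were of several kinds, and some, such as Nfatc3 and Tab1, belong to lists in which more genes rose. NKG2D ligands are stress proteins that tumour cells display to NK and CD8 T cells, and 2 of the 3 such genes in the table, H60a and Ulbp1, fell. The third, Raet1, which was in no list and was looked up after these values were seen, was at 0.26 (SE 0.19, adjusted p = 0.279). H60a had log2 values of 6.51 to 7.24 in anti-PD-1 tumours (median 7.03) and 7.14 to 8.07 in isotype tumours (median 7.37), a log2 change of -0.50 (SE 0.12, adjusted p = 0.00619). Ulbp1 was at 6.79 to 7.72 under anti-PD-1 (median 7.13) and 6.7 to 8.42 under isotype (median 7.91), a log2 change of -0.57 (SE 0.16, adjusted p = 0.0167), and the low isotype value belonged to DMSO tumour 23. For each gene 12 of 12 anti-PD-1 tumours were below the isotype mean of their culture. The falls were alike in the cultures, at -0.52 in NP1867 and -0.48 in DMSO tumours for H60a and at -0.59 and -0.56 for Ulbp1. Ligands of other receptors, Pvr (-0.14) and Pvrl2 (0.03), were not called.

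Among MAP kinases, phosphatases and CREB/ATF factors 4 of 27 genes were lower, against 3% of all tested genes, 2 were higher and 21 were not called. Creb1, a factor activated by cyclic AMP and by kinases, was at 6.54 to 7.01 under anti-PD-1 (median 6.84) and 6.88 to 7.58 under isotype (median 7.09), a log2 change of -0.32 (SE 0.09, adjusted p = 0.0167). Atf2, a factor of the same superfamily, fell by 0.32 in log2 units (SE 0.1, adjusted p = 0.0249). Creb1 and Atf2 were each below the isotype mean of their culture in 12 of 12 anti-PD-1 tumours. Dusp6, a phosphatase of MAP kinases, was lower too (-0.24), and the higher genes were Fos at 0.59 and Map3k1 at 0.32. Dusp6 and Fos are named after their values were seen. The list's median was -0.04 and -0.38 when centred, its lower genes numbered 2 (without DMSO isotype tumour 55) to 10 over the left-out fits, its higher genes 0 without NP1867 anti-PD-1 tumour 78, and Map3k1 turned to -0.02 when centred.

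Cell cycle and proliferation genes gave 3 lower and 0 higher of 9, with a median of -0.24 (-0.58 when centred, with 7 lower). Left-out fits gave 0 lower (without DMSO anti-PD-1 tumour 7) to 5. Bmi1, a polycomb protein that holds back senescence, fell by 0.43 in log2 units (SE 0.14, adjusted p = 0.0307) in 12 of 12 anti-PD-1 tumours. The nuclear proteins Anp32b and Nup107 fell by 0.25 and 0.24 (SE 0.09 and 0.08). The mitotic genes Cdk1 (-0.18, adjusted p = 0.347) and Birc5 (-0.14, adjusted p = 0.194) did not pass the threshold as deposited, but did when centred, at -0.51 and -0.48. Among 9 housekeeping genes 2 were lower, Nup107 and the chromatin protein Hmgb1 (-0.31, SE 0.1), and their median was -0.16 (-0.49 when centred), with 0 lower without DMSO isotype tumour 59.

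The remaining falls belong to no single group. Smad3, which carries the TGF-beta signal, had log2 values of 7.43 to 8.53 under anti-PD-1 (median 7.87) and 7.9 to 8.66 under isotype (median 8.28), a log2 change of -0.41 (SE 0.11, adjusted p = 0.0128). C1qbp, a mitochondrial matrix protein named for its binding of C1q, was at 10.27 to 10.81 under anti-PD-1 (median 10.59) and 10.69 to 11.47 under isotype (median 10.88), falling by 0.33 in log2 units (SE 0.09, adjusted p = 0.0145). For both genes 11 of 12 anti-PD-1 tumours were below the isotype mean of their culture. The drug efflux pump Abcb1a fell by 0.45 in log2 units (SE 0.16, adjusted p = 0.0368) and the adaptor Tab1 by 0.32 (SE 0.12, adjusted p = 0.0471). Abcb1a was called in 12 of 24 left-out fits and Tab1 in 6.

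The pan-leukocyte marker did not pass the test. Ptprc (CD45), carried by all nucleated blood cells, had log2 values of 8.44 to 10.23 in anti-PD-1 tumours (median 9.09) and 7.8 to 9.74 in isotype tumours (median 8.74), a log2 change of 0.43 (SE 0.2, adjusted p = 0.0928), or 0.09 when centred. With the level of Ptprc in each tumour as a covariate, 51 of 599 genes were called (8.51%), 39 higher (6.51%) and 12 lower (2%), of which 44 were among the 184. The class II list still had 8 higher genes: H2-Eb1 was at 1.41 (adjusted p = 0.0127), H2-Aa at 0.98 (adjusted p = 0.008) and Ciita at 0.89 (adjusted p = 0.021). Slc11a1 was at 0.93, Tpsab1 at 0.99, Pdcd1 at 0.81 and Cd274 at 0.64, all called. Among the falls H60a (-0.46), Creb1 (-0.33), Atf2 (-0.37), C1qbp (-0.33) and Hmgb1 (-0.35) were called. The complement list had 0 higher genes with the covariate and the CD3 and T cell list 1, with Cd8a at 0.68 (adjusted p = 0.0538) and C3 at 0.61 (adjusted p = 0.218). Among the cell type markers, the summed level of the 3 CD3 chains was 290 to 624 normalised counts under anti-PD-1 (median 408) and 95 to 431 under isotype (median 246). That of 3 mast cell markers was 337 to 1020 under anti-PD-1 (median 618) and 140 to 606 under isotype (median 318). Median sums under anti-PD-1 and isotype were 3400 and 2772 for macrophages, 511 and 386 for natural killer cells, and 377 and 187 for neutrophils. They were 65 and 33 for B cells, 90 and 47 for dendritic cells, and 96 and 46 for CD8 T cells. The highest sum was in an isotype tumour for macrophages (6009), B cells (186), dendritic cells (213) and CD8 T cells (158).

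NP1867 and DMSO tumours contributed unequally to the calls, although no difference between their responses was called. In the fit of 4 group means to all tumours, anti-PD-1 against isotype gave 74 calls (12.3%) in NP1867 tumours and 0 in DMSO tumours, where 85 genes had an unadjusted p under 0.05. The test of the difference between the responses called 0 of 600 genes by limma, with 11 at an unadjusted p under 0.05, and 0 by limma-voom on the recovered counts. Among the 166 rises the median log2 fold change was 0.88 in NP1867 and 0.57 in DMSO tumours, and 145 were larger in NP1867. Among the 18 falls the medians were -0.30 in NP1867 and -0.37 in DMSO tumours. H2-Eb1 rose by 2.42 (SE 0.54) in NP1867 tumours and was at 1.49 (SE 0.54) in DMSO tumours, and Cd74 was at 1.91 and 0.93 (SE 0.47 each). Lbp ran the other way, at 1.27 in NP1867 and 2.30 in DMSO tumours (SE 0.68 each). The lowest p values of the difference were for the leukocyte receptor Lilra5 (0.54 in NP1867, -0.69 in DMSO) and Il12rb1 (1.23 in NP1867, 0.07 in DMSO), each with an adjusted p of 0.995. The 4 tumours of low counts are all on the DMSO side. Without them the test of the difference between the responses again called 0 genes. Their part in the unequal numbers of calls was not tested.

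**Figure D4:**
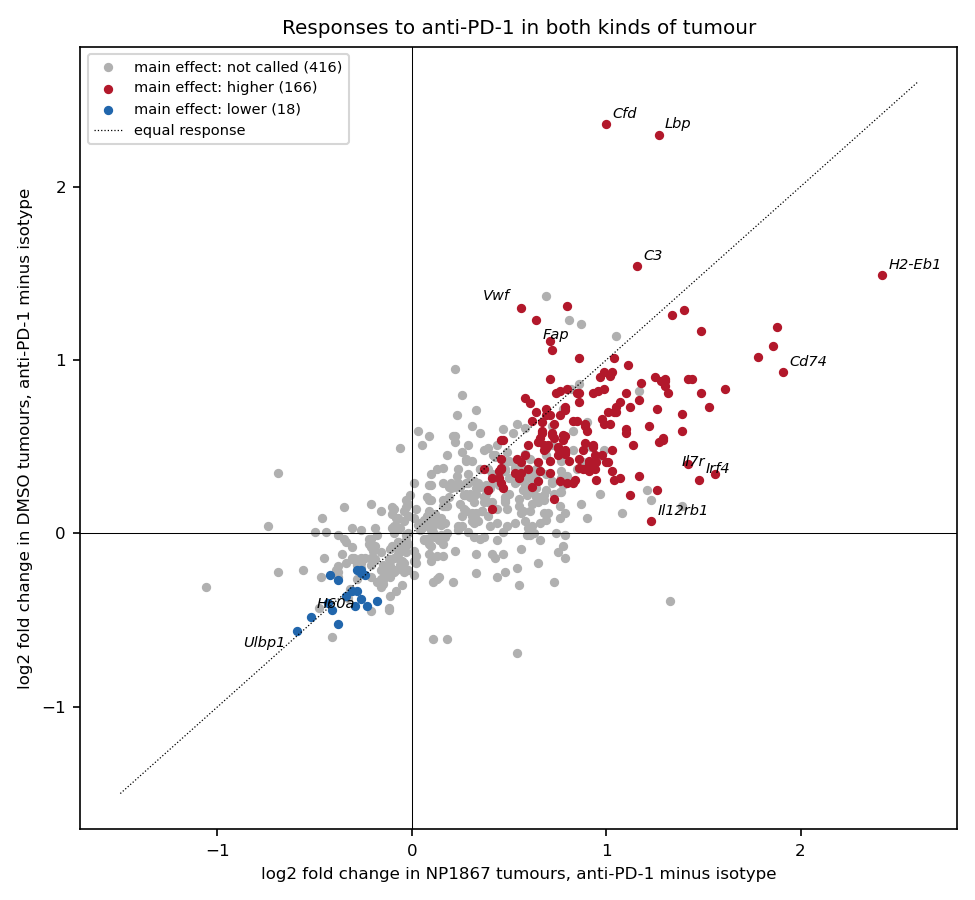
Log2 fold change under anti-PD-1, anti-PD-1 minus isotype, in NP1867 tumours (horizontal axis) against DMSO tumours (vertical axis) for 600 genes; red and blue mark genes called higher and lower in the main effect, and the dotted line marks equal change. All 166 red points lie right of and above 0 and all 18 blue points left of and below it; 145 red points lie to the NP1867 side of the dotted line, and Lbp and Cfd on the DMSO side.

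Stability over processing and tumours was counted for the calls. Of the 166 rises 82, and of the 18 falls 7, were called without each tumour in turn. Without NP1867 anti-PD-1 tumour 78 the number of calls was 92, the lowest, with 81 of the rises and 11 of the falls lost, and without DMSO isotype tumour 23 it was 316, the highest. A total of 30 genes were called without each tumour and in every setting (14, or 13 for genes that the filter at 50 removed). Of these, 27 were higher and include the class II genes H2-Eb1, H2-Aa, H2-Ab1, H2-DMa and Cd74, the class I genes H2-T23 and Psmb9, the checkpoint genes Pdcd1 and Cd274, and the leukocyte genes Cd3d, Il2rg, Ltb, Itgb2, Selplg, Slamf7, Slc11a1, Csf3r and Csf2rb. The mast cell genes Tpsab1 and Cma1 and the lipid exporter Abcg1 are also among the 27. The 3 lower genes were H60a, Creb1 and C1qbp.

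**Figure D5:**
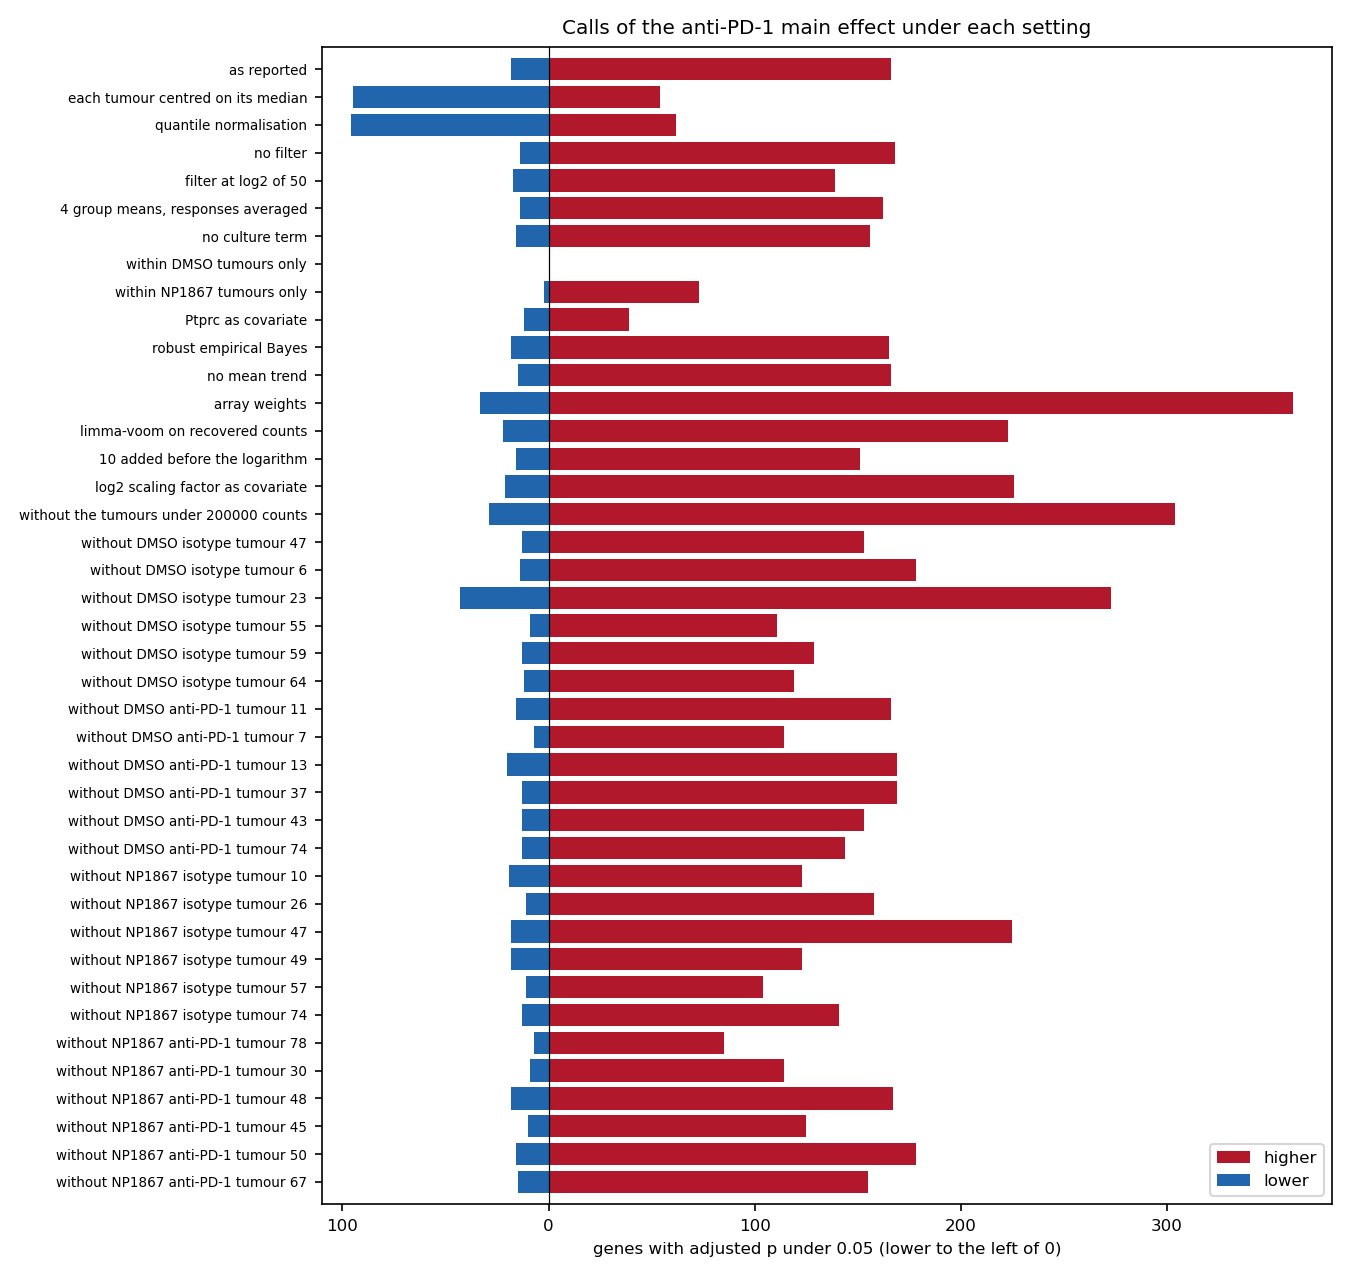
Number of genes called higher (red, to the right of 0) and lower (blue, to the left of 0) in the main effect as reported, under each other setting and without each tumour in turn. Calls number 166 higher and 18 lower as reported, 54 and 95 when each tumour is centred, and between 85 and 273 higher when 1 tumour is left out.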

How the data were processed

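RNA from sections of 24 formalin-fixed tumours was hybridised to the NanoString nCounter Mouse PanCancer Immune panel, in which labelled probes are counted without amplification, with 100 ng of RNA per tumour per the labels' protocols. The authors deposited log2 values of 750 genes. Each deposited log2 value was a whole count times 1 factor per tumour, within 0.05 of a whole count for 100% of values; the factors ran from 0.522 to 5.457, and how they were set is not given in the sources used here. Samples were grouped by their titles.

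The 600 genes whose mean log2 value reached log2 of 20 were tested. limma 3.58.1 in R 4.3.3 fitted antibody and culture as additive terms to all 24 tumours, with empirical Bayes and a mean trend (21 residual and 4.3 prior degrees of freedom). The threshold was 0.05 on two-sided limma p values after Benjamini-Hochberg adjustment. The fit was tested on simulated data. A difference between responses was tested as an interaction in a fit of the 4 group means. Settings tried were centring, quantile normalisation, no filter, a filter at 50, group means, no culture term, each culture alone, Ptprc as covariate, robust fitting, no trend, array weights, limma-voom, 10 added before the logarithm, the factor as covariate, and leaving out the tumours of low counts or each tumour. The 14 settings counted in the report are these without each culture alone and leaving out single tumours.

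The 48 gene lists and the genes named were chosen with earlier results of these data known, and lists share genes. Named genes are the 20 largest rises, the 15 largest falls, up to 4 called members of each list with the lowest p, a group of immune genes taken whatever their test, and the 5 lowest p of the difference. Other uncalled list members were chosen after their values were seen, to complete a list. No list was tested, and some genes are not reported here. Promoters are from RefSeq (GRCm38.p6). Of the 750 symbols 736 matched a RefSeq symbol, 8 matched through a synonym and 6 had no match. Figures were drawn with matplotlib 3.10.9.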

Additional observations from a re-analysis of the deposited data

Results flagged for a closer look

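In each group of 6 tumours the highest and lowest log2 value of every named gene was set against its nearest neighbour. The same was done for the log2 total count, the log2 scaling factor and the median log2 value of the tumours. Of 660 such groups 40 (6.06%), all of named genes, held a value whose gap exceeded 0.625 of the group's range, where chance gives about 1 in 20. DMSO isotype tumour 23, the tumour with the fewest counts, held 11 of them. It was the highest of its group for Cd97 (7.91), Creb1 (7.58), Tap2 (9.57), Tbx21 (6.62), Cd86 (7.4), Icosl (5.77), Nod1 (8.15), Trem2 (7.91), Ccl4 (7.09) and Ltb (7.84), and the lowest for Ulbp1 (6.7). NP1867 isotype tumour 47 was the highest of its group for Cmklr1 (8.27), Ccl6 (8.24), Map3k1 (7.76), Tfeb (7.29), Cd68 (10.99) and Hsd11b1 (6.46).

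DMSO anti-PD-1 tumour 13 was the lowest of its group for Tap2 (8.91), Pdcd1lg2 (4.97), Icos (4.54) and Itgax (3.45) and the highest for Hmgb1 (9.87). DMSO isotype tumour 55 was the lowest for Xaf1 (7.39), Cd180 (7.18) and Cybb (8.68), and DMSO isotype tumour 6 the highest for C1qbp (11.13) and Thy1 (9.02). NP1867 isotype tumour 57 was the lowest for Psmb9 (8.21) and Fcgr4 (7.73) and the highest for Il34 (8.41), and NP1867 isotype tumour 26 the highest for C1qbp (11.47) and the lowest for Tyk2 (4.81). DMSO anti-PD-1 tumour 37 was the lowest for Irf1 (9.3) and Klrk1 (6.75), and DMSO anti-PD-1 tumour 7 the highest for Egfr (7.57). NP1867 anti-PD-1 tumour 67 was the lowest for Foxp3 (2.04, the log2 value of 3 counts in that tumour) and the highest for Il34 (8.12). NP1867 anti-PD-1 tumour 48 was the lowest for Tnfaip3 (7.32) and Itgax (3.45).

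Among the 150 genes below the filter on low values, 12 were called higher under anti-PD-1 when no filter was set. Their log2 fold changes, anti-PD-1 minus isotype, were 1.58 for the NK receptor Klra3, 1.10 for Il17f, 1.0 for the T cell receptor-associated Cd5, 1.0 for Stat4, 0.94 for H2-DMb1, 0.93 for Cd8b1, 0.91 for Gzmk, 0.91 for Ccl19, 0.89 for Cd27, 0.78 for Mst1r, 0.77 for Adora2a and 0.72 for Fut7. The 2 largest changes lay at the lowest levels, with mean log2 values of 2.59 for Klra3 (SE 0.55) and 3.08 for Il17f (SE 0.39). Both means are under 4.03, the log2 value of 3 counts in DMSO isotype tumour 23, so these changes rest on few counts.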

How the results depend on the processing

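Calls, given as higher and lower genes against 166 and 18 as reported, moved most with scaling, weighting and the tumours fitted. Centring gave 54 and 95, quantile normalisation 62 and 96, Ptprc as covariate 51 calls with 39 higher, array weights 394 (361 and 33), and leaving out the tumours of low counts 333 (304 and 29). NP1867 tumours alone gave 75 (73 and 2), and DMSO tumours alone 0 calls by limma, with 85 at an unadjusted p under 0.05 in the fit of 4 group means. Leaving out each tumour gave 92 to 316 calls, 85 to 273 higher and 7 to 43 lower. Calls moved by over 1.5 times without DMSO isotype tumours 23 (316) and 55 (120), DMSO anti-PD-1 tumour 7 (121), NP1867 isotype tumour 57 (115) and NP1867 anti-PD-1 tumour 78 (92). The causes were not tested.

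Signs turned for 10 named genes, of which Prkcd and Map3k1 were called. When centred the values were -0.06 for Prkcd, -0.02 for Map3k1, Prf1 and Rel, -0.09 for Itgam, -0.2 for Ncr1 and -0.3 for Pecam1. Quantile normalisation gave -0.28 for Ncr1, -0.07 for Pecam1 and -0.11 for Klrc2, and the Ptprc covariate -0.12 for Itgam, -0.1 for Ncr1 and -0.21 for Pecam1. In DMSO tumours alone Gzmb was at -0.01, Prf1 at -0.11, Ncr1 at -0.22 and Klrc2 at -0.39. In NP1867 tumours alone Pecam1 was at -0.02 and Lilra5 at 0.54, and Lilra5 was at 0.12 without the tumours of low counts. Leaving out single tumours brought Pecam1 to between -0.07 and 0.13 and Lilra5, at -0.08 as reported, to between -0.14 and 0.06. No paired analysis was possible because the antibody groups share fewer than 2 tumour numbers.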
